A study of Mus musculus with 4 samples.

Results

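The genes described here are 9 genes of T cell quiescence and of recirculation through lymphoid tissue: Foxo1, Klf2, Klf3, S1pr1, Tcf7, Lef1, Satb1, Bach2 and Foxp1. They were taken by name from a table of 16230 genes, and each name matched 1 row. RNA was sequenced from splenic CD4 T cells that had been sorted from Rag-/- hosts with colitis, 8 weeks after the hosts had received naive CD4 T cells. Rag-/- mice make no T or B cells of their own, so transferred T cells expand in them and inflame the colon. The donor cells were CD4creERafl/fl (2 libraries), in which a Cre recombinase driven from Cd4 was meant to delete the loxP-flanked part of Esr1, the gene of estrogen receptor α, or ERafl/fl (2 libraries), which carry the flanked alleles without Cre. Both groups shared the Rag-/- host, the transfer, the colitis and the sort. Cd4-driven Cre acts during T cell development in the thymus, before the cells are mature, and the host keeps its own macrophages, red cell precursors and stroma. The sources used here give no age, sex, Rag gene or number of animals per library, so p-values measure the spread between these libraries, which may be technical.

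Naive and resting memory T cells circulate between blood and lymphoid organs, and a small group of transcription factors holds that state. FOXO1 stays in the nucleus while signalling through PI3K and AKT is low, and there it drives Klf2. KLF2 in turn activates S1pr1, whose product senses sphingosine 1-phosphate and lets T cells leave lymphoid organs. TCF1, the product of Tcf7, and LEF1 keep the naive and memory programme together with BACH2, SATB1 and FOXP1, and T cell receptor signalling lowers several of these factors as cells become effectors.

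The libraries differed in what cells their transcripts came from. The level of 22 T cell genes was taken as the geometric mean of FPKM + 1. It was 10.2 and 12.2 in the CD4creERafl/fl libraries, against 61.8 and 47.3 in the ERafl/fl libraries. Whether NK cells or other cells added to this level was not tested. FPKM are fragment numbers scaled to transcript length and library depth. Summed over 22 macrophage and monocyte markers, all of them in the table, FPKM was 3495 and 4095 in the CD4creERafl/fl libraries, against 139.9 and 656 in ERafl/fl 1 and 2. None of these markers was listed at 0 in the CD4creERafl/fl libraries, and Adgre1, Cd14, Mertk, Fcgr1 and Marco were listed at 0 in ERafl/fl 1. Erythroid markers summed to 6610.4 and 5199 FPKM in the CD4creERafl/fl libraries, against 273 and 8290.3 in ERafl/fl 1 and 2. Cd4, the sorting marker, had 52.6 and 52.4 FPKM, against 155 and 128.1. Esr1 was listed at 0 in CD4creERafl/fl 1 and had 1.96 FPKM in CD4creERafl/fl 2, against 0.23 FPKM in ERafl/fl 1 and a listed 0 in ERafl/fl 2, so its level does not check the labels. The group names below are those of the labels. In such bulk samples, fewer T cells and less of a transcript per T cell cannot be told apart, and the part of the other cell types in the results was not tested.

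Across the 9 genes, the 2 with the lowest levels in CD4creERafl/fl libraries relative to ERafl/fl libraries were Lef1 and S1pr1, and the one with the highest was Bach2. All 9 had a mean of at least 1 FPKM over the 4 libraries and were tested with limma on log2(FPKM + 1) among 12896 genes, with Benjamini-Hochberg adjustment over all of them. None passed an adjusted p of 0.05: their adjusted p ranged from 0.129 to 0.742, and 0 were called higher and 0 lower, where 0.0155% of all tested genes were called higher and 0.0388% lower. At an unadjusted p under 0.05, 4 of the 9 had lower levels in the CD4creERafl/fl libraries (Lef1, S1pr1, Tcf7 and Satb1) and 0 had higher ones, against 6.8% and 9.1% of all tested genes. With 1 library fewer, 2 of the 9 were under that p without CD4creERafl/fl 1, 1 without CD4creERafl/fl 2, 3 without ERafl/fl 1 and 4 without ERafl/fl 2. Both CD4creERafl/fl libraries lay below both ERafl/fl libraries for 6 genes and above them for 2, where 25.7% of all tested genes were lower and 23.2% higher without overlap. The median log2 fold change was -1.14 over the 9 genes and -0.07 over all tested genes. The median of the 9 was -0.54 without ERafl/fl 1 and -1.74 without ERafl/fl 2. Relative to T cell genes the picture differs, and that scale is given further on. With 2 libraries against 2, an exact permutation test of a single gene cannot give a two-sided p below 0.333, so none is given. When limma was run with voom weights on recovered fragments, which covered the 5 genes with 1 transcript (Foxo1, Klf2, Klf3, S1pr1 and Bach2), 0 of these were called, where 2.26% of tested genes were called higher and 0.786% lower.

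**Figure D1:**
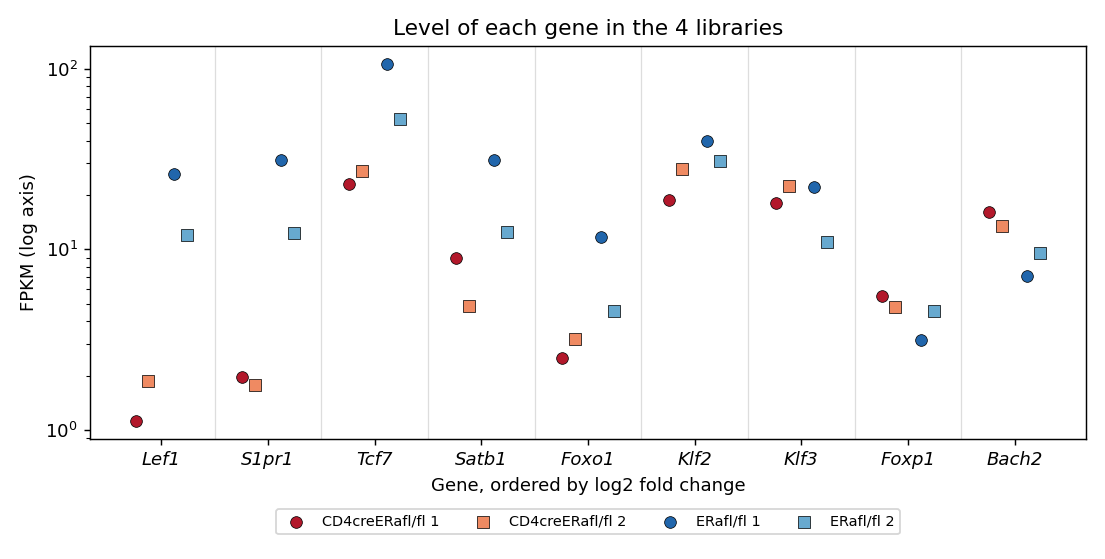
FPKM on a log axis of each of the 9 genes in the 2 CD4creERafl/fl libraries (red and orange) and the 2 ERafl/fl libraries (dark and light blue); each point is 1 library. Lef1 and S1pr1 lie between 1.12 and 1.97 FPKM in the CD4creERafl/fl libraries and between 12.02 and 31.1 FPKM in the ERafl/fl libraries, while Klf3 is the 1 gene whose groups overlap.

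Foxo1, the forkhead factor at the top of the recirculation axis (NCBI gene 56458; GRCm38 chromosome 3, 52268337 to 52350109), had 2.49 and 3.19 FPKM in CD4creERafl/fl libraries 1 and 2, against 11.8 and 4.56 FPKM in ERafl/fl libraries 1 and 2. The groups did not overlap, but ERafl/fl 2 stood much nearer to the CD4creERafl/fl libraries than to ERafl/fl 1. Its log2 fold change was -1.14 ± 0.56 (SE, n = 2 libraries each; adjusted p = 0.397 in limma), and it was -0.54 without ERafl/fl 1 and -1.74 without ERafl/fl 2. Behind these values stood about 11 and 15 fragments in the CD4creERafl/fl libraries, against 71 and 26 in the ERafl/fl libraries. The counting intervals of CD4creERafl/fl 2 and ERafl/fl 2 overlapped, at 1.74 to 5.14 and 2.96 to 6.63 FPKM (exact Poisson, 95%). Exons of Foxo1 share 674 bases with Gm20402 on the opposite strand, and their fragments cannot be told apart unless the counting used strand. The other FOXO factors measured were not lower to that degree: Foxo3 had 1.38 and 4.32 FPKM, against 3.46 and 2.59 FPKM, and Foxo4 had 94.2 and 65.4 FPKM, against 135 and 96.0 FPKM (adjusted p in limma 0.911 and 0.494). Whether Foxo1 differed from its relatives was not tested.

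Klf2, the zinc finger factor that FOXO1 drives (NCBI gene 16598; chromosome 8, 72319062 to 72321654), had 18.7 and 27.7 FPKM in the CD4creERafl/fl libraries, against 39.6 and 30.7 FPKM in the ERafl/fl libraries. The nearest libraries of the groups, CD4creERafl/fl 2 and ERafl/fl 2, had overlapping counting intervals, 18.1 to 39.4 and 21.96 to 42.6 FPKM (exact Poisson, 95%). The log2 fold change of -0.59 ± 0.36 (SE; adjusted p = 0.48 in limma) was higher than that of 24.8% of all tested genes. It was -0.32 without CD4creERafl/fl 1 and -0.86 without CD4creERafl/fl 2. Klf3, a zinc finger repressor that KLF factors can induce (NCBI gene 16599; chromosome 5, 64803521 to 64832901), had 18.1 and 22.4 FPKM, against 22.3 and 11.04 FPKM. Here the ERafl/fl libraries differed by a factor of 2.02 and enclosed 1 of the CD4creERafl/fl values. The log2 fold change was 0.34 ± 0.44 (SE; adjusted p = 0.742 in limma), and it turned to -0.14 without ERafl/fl 2 and was 0.81 without ERafl/fl 1. Klf3 shares 404 bases of exon with Gm20033 on the opposite strand.

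The promoter of Klf2 is shown because this gene links FOXO1 to S1pr1 in the known pathway. It comes from RefSeq, build GRCm38.p6, and runs from 250 bases before to 50 bases after the start of transcription, chr8:72318812-72319111, plus strand. Capitals mark the KLF motif CACCC, found on either strand, which here starts at base 232 as GGGTG.
Klf2 promoter: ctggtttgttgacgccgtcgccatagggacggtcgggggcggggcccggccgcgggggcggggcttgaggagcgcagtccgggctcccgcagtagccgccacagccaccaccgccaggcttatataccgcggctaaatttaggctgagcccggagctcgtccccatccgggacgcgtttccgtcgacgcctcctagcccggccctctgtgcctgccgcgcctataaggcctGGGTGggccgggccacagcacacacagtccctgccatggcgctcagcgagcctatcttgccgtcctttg
The FOXO motif TGTTTAC and the TCF/LEF motif CTTTGAT were searched on both strands too, and neither is in this window. Of 32851 promoters of this length, 57.5% hold the KLF motif, 3.65% the FOXO motif and 3.73% the TCF/LEF motif. Of the 9 genes, 8 have an entry in the promoter table, 18 entries in all, and 14 of these hold the KLF motif. Counted by gene, 6 of the 8 have an entry with that motif. Entries of 1 gene can share bases, as Lef1 entries 1 and 2 do. S1pr1 has no entry and is named only.

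S1pr1, the receptor for sphingosine 1-phosphate through which T cells leave lymphoid organs (NCBI gene 13609; chromosome 3, 115710433 to 115715055), had 1.97 and 1.77 FPKM in the CD4creERafl/fl libraries, against 31.1 and 12.3 FPKM in the ERafl/fl libraries. The CD4creERafl/fl values correspond to 3 fragments in each library, against 66 and 25 fragments in the ERafl/fl libraries. By counting error, 3 fragments allow 0.406 to 5.76 and 0.365 to 5.18 FPKM in the CD4creERafl/fl libraries, while the ERafl/fl values allow 24.1 to 39.6 and 8.01 to 18.3 FPKM (exact Poisson, 95%). These intervals do not meet, and they cover counting error only. Pooled within groups, the rate in CD4creERafl/fl libraries was 0.0849 of that in ERafl/fl libraries, with a counting interval of 0.0303 to 0.192. The log2 fold change was -2.85 ± 0.55 (SE; adjusted p = 0.139 in limma), and 0.69% of all tested genes had a lower one. It was -2.22 without ERafl/fl 1 and -3.48 without ERafl/fl 2.

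Within each library, the level of S1pr1 was also set against that of Klf2, its activator. The ratio was 0.105 and 0.0638 in the CD4creERafl/fl libraries, against 0.785 and 0.402 in the ERafl/fl libraries. Thus S1pr1 was low relative to Klf2 in both CD4creERafl/fl libraries, and a ratio within a library does not depend on how the library was scaled. The 2 genes need not come from the same cells in these samples.

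**Figure D2:**
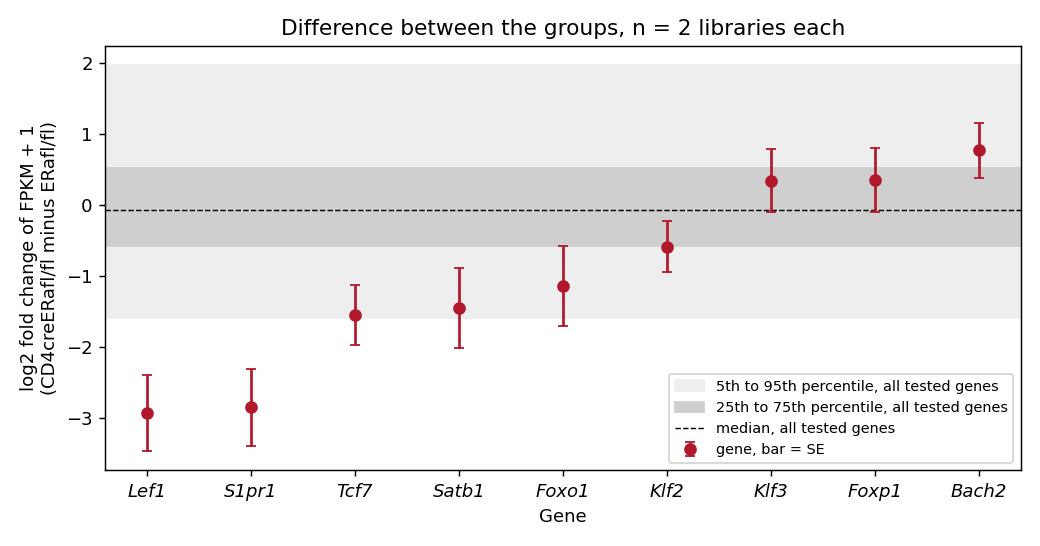
Log2 fold change of FPKM + 1, CD4creERafl/fl minus ERafl/fl, for each of the 9 genes with its SE (n = 2 libraries each), over grey bands that give the 5th to 95th and the 25th to 75th percentile of all 12896 tested genes. Lef1 (-2.93) and S1pr1 (-2.85) lie below the outer band, Tcf7 (-1.55) lies near its lower edge at -1.60, and Klf3, Foxp1 and Bach2 lie at 0.34, 0.36 and 0.76; scaled to T cell genes, Klf2, Tcf7, Foxo1 and Satb1 change sign.

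Tcf7, which encodes the high mobility group factor TCF1 of naive and memory T cells (NCBI gene 21414; chromosome 11, 52246527 to 52283383), had the highest mean of the 9 genes in both groups. It had 22.9 and 27.2 FPKM in the CD4creERafl/fl libraries, against 107 and 52.8 FPKM in the ERafl/fl libraries. The groups did not overlap, and ERafl/fl 1 exceeded ERafl/fl 2 by a factor of 2.02. The log2 fold change was -1.55 ± 0.42 (SE; adjusted p = 0.192 in limma), with -1.05 without ERafl/fl 1 and -2.05 without ERafl/fl 2.

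Lef1, the close relative of TCF1 that shares its DNA-binding domain type (NCBI gene 16842; chromosome 3, 131110297 to 131224357), had 1.12 and 1.87 FPKM in the CD4creERafl/fl libraries, against 26.2 and 12.02 FPKM in the ERafl/fl libraries. Taken over its longest transcript of 3482 bases, this is about 1.9 and 3.6 fragments, against 63.6 and 27.7 fragments. Its log2 fold change of -2.93 ± 0.53 (SE; adjusted p = 0.129 in limma) was the lowest of the 9 genes, and 0.597% of all tested genes had a lower one. It was -2.40 without ERafl/fl 1 and -3.47 without ERafl/fl 2. Exons of Lef1 share 1208 bases with Gm43352 on the opposite strand. The ratio of Lef1 to Tcf7 within a library was 0.049 and 0.0688 in the CD4creERafl/fl libraries, against 0.246 and 0.228 in the ERafl/fl libraries. Unlike the levels themselves, this ratio was close between the ERafl/fl libraries.

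Promoters of Lef1 and Tcf7 are shown because the FPKM of these relatives stood below the ERafl/fl libraries to different degrees. Both are from RefSeq, GRCm38.p6, with 250 bases before and 50 after a start: chr3:131110047-131110346, plus strand, for the first of 4 Lef1 starts, and chr11:52282546-52282845, minus strand, for the second of 2 Tcf7 starts. The Tcf7 start was chosen after the search, as the 1 entry of the 18 with the FOXO motif. Capitals mark KLF motifs (CACCC or GGGTG) and, near the end of the Tcf7 window, the FOXO motif as GTAAACA.
Lef1 promoter: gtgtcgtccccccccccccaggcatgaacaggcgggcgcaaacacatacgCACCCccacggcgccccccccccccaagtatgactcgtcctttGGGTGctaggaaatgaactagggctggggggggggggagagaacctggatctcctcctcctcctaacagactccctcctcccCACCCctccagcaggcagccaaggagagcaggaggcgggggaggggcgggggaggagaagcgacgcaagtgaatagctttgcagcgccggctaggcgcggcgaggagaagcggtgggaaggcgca
Tcf7 promoter: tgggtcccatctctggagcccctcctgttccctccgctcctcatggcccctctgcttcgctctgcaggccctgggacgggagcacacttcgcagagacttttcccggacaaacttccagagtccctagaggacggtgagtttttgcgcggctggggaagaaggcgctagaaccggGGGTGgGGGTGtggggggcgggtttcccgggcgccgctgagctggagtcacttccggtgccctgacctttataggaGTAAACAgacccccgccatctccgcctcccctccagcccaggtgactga
The Lef1 window holds 3 KLF motifs and the Tcf7 window 2. None of the 18 entries holds the TCF/LEF motif. A match is a run of letters in the window and no measurement of binding.

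Satb1, a chromatin organiser of T cell development (NCBI gene 20230; chromosome 17, 51736187 to 51833290), had 8.94 and 4.88 FPKM in the CD4creERafl/fl libraries, against 31.3 and 12.5 FPKM in the ERafl/fl libraries. Both groups were spread, by factors of 1.83 and 2.50, and did not overlap. Satb1 shares 156 bases of exon with Gm36931 on the same strand and 128 with Gm6934 on the opposite strand. Counting by strand cannot tell same-strand fragments apart. The log2 fold change was -1.45 ± 0.56 (SE; adjusted p = 0.306 in limma), with -0.82 without ERafl/fl 1 and -2.08 without ERafl/fl 2.

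Bach2, a repressor of effector genes (NCBI gene 12014; chromosome 4, 32238413 to 32586109), stood the other way. It had 16.2 and 13.4 FPKM in the CD4creERafl/fl libraries, against 7.13 and 9.58 FPKM in the ERafl/fl libraries. The groups did not overlap, on an estimated 69 and 63 fragments, against 42 and 54 fragments. The counting intervals of the nearest libraries, CD4creERafl/fl 2 and ERafl/fl 2, did overlap, at 10.3 to 17.1 and 7.20 to 12.5 FPKM (exact Poisson, 95%). Its log2 fold change was 0.76 ± 0.38 (SE; adjusted p = 0.403 in limma), from 0.57 to 0.95 over the fits without 1 library. Bach2os, a transcript on the opposite strand that shares 537 bases of exon with Bach2, had 6.04 and 14.1 FPKM, against 10.4 and 6.37 FPKM, and its groups overlapped. Prdm1, a gene that BACH2 represses, had 1.51 and 2.72 FPKM, against 2.45 and 1.71 FPKM.

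Foxp1, a forkhead factor needed for naive T cell quiescence (NCBI gene 108655; chromosome 6, 98925342 to 99522746), had 5.50 and 4.80 FPKM in the CD4creERafl/fl libraries, against 3.16 and 4.54 FPKM in the ERafl/fl libraries. CD4creERafl/fl 2 and ERafl/fl 2 were nearly level. Foxp1 shares 300 bases of exon with Gm20696 and 135 with Gm49348, both on the same strand. The log2 fold change was 0.36 ± 0.45 (SE; adjusted p = 0.734 in limma), with 0.15 without ERafl/fl 1 and 0.56 without ERafl/fl 2. Bach2 and Foxp1 are also expressed by B cells. The 6 B cell markers in the table summed to 206.86 and 93.7 FPKM in the CD4creERafl/fl libraries, against 69.2 and 93.7 FPKM in the ERafl/fl libraries, and the marker levels did not move together. Cd22, an inhibitory receptor of B cells, had 198.8 and 76.3 FPKM, against 51.7 and 65.9 FPKM (adjusted p = 0.372 in limma). Fcer2a, the low-affinity IgE receptor CD23, had 1.27 and 10.96 FPKM, against 17.5 and 16.6 FPKM (adjusted p = 0.358 in limma). Cd79b, a chain of the B cell receptor complex, had 6.76 and 4.55 FPKM, against a listed 0 and 8.91 FPKM. Its partner Cd79a was listed at 0 in both CD4creERafl/fl libraries and in ERafl/fl 1 and had 2.29 FPKM in ERafl/fl 2, while Ms4a1, which encodes CD20, and Ebf1, a factor of the B lineage, were listed at 0 in all libraries but CD4creERafl/fl 2, with 0.87 and 1.07 FPKM there. The part of B cells in the levels of Bach2 and Foxp1 was not tested.

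The order of levels within a group can be read because FPKM are per length. In the CD4creERafl/fl libraries Tcf7, Klf2 and Klf3 were highest, and Klf2 overlapped Tcf7 and Klf3. Bach2 followed, then Satb1 and Foxp1, which overlapped, then Foxo1, and last S1pr1 and Lef1, which overlapped. In the ERafl/fl libraries Tcf7 was highest and Klf2 came next. In the run from Klf2 through Satb1, S1pr1 and Lef1 to Klf3, each gene overlapped its neighbours in that run. Bach2 and Foxo1, which overlapped, had lower means than these, and Foxp1 was lowest. Foxo1, at 4.56 to 11.76 FPKM, also overlapped Klf3, at 11.04 to 22.28 FPKM. S1pr1 and Lef1 thus ranked in the middle in the ERafl/fl libraries and last in the CD4creERafl/fl libraries, while Bach2 moved above Satb1: the ratio of Bach2 to Satb1 was 1.81 and 2.75 in the CD4creERafl/fl libraries, against 0.228 and 0.766 in the ERafl/fl libraries.

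The ERafl/fl libraries themselves differed on these genes. ERafl/fl 2 minus ERafl/fl 1 was negative for 7 of the 9 genes on log2(FPKM + 1), with a median of -1.0, and positive for Bach2 (0.38) and Foxp1 (0.41). Over all tested genes this median was 0.00, and 47.9% were negative. The absolute difference had a median of 1.0 over the 9 genes and 0.46 over all tested genes. Between the CD4creERafl/fl libraries, 2 minus 1, the absolute difference had a median of 0.26 over the 9 genes and 0.53 over all tested genes. For each of the 8 genes without overlap, ERafl/fl 2 was nearer than ERafl/fl 1 to the mean of the CD4creERafl/fl libraries, as it was for 56.4% of all tested genes without overlap. ERafl/fl 2 also had the higher sum of macrophage markers and the lower level of T cell genes of the ERafl/fl libraries, as given above.

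Relative to the 22 T cell genes, which contain none of the 9, only Lef1 and S1pr1 of the 9 stayed lower. On deposited FPKM the 22 genes themselves had log2 fold changes from -3.47 to -0.78. The values of -2.93 for Lef1 and -2.85 for S1pr1 lie within that range. FPKM divided by the T cell level was lower without overlap for these 2 genes, higher without overlap for 6, and overlapping for Satb1. The background was very uneven: 82.6% of all tested genes were higher and 1.62% lower without overlap on this scale. For S1pr1 the ratio was 0.194 and 0.145 in the CD4creERafl/fl libraries, against 0.503 and 0.261 in the ERafl/fl libraries. For Lef1 it was 0.11 and 0.153, against 0.425 and 0.254. In both genes the nearest values of the groups were those of ERafl/fl 2 and a CD4creERafl/fl library. The CD4creERafl/fl values rest on 3 fragments per library for S1pr1 and about 1.9 and 3.6 for Lef1. Counting error was not carried over to this scale, so the intervals given for S1pr1 on FPKM do not apply to it. Whether these 2 genes stay lower with another pseudocount in the T cell level was not tested. Tcf7 had 2.25 and 2.23, against 1.72 and 1.12, and Foxo1 had 0.245 and 0.261, against 0.19 and 0.0964. Klf2 had 1.84 and 2.27, against 0.641 and 0.650.

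The limma fit scaled to the same T cell list gave log2 fold changes of -1.11 for Lef1 (adjusted p = 0.085) and -0.96 for S1pr1 (0.132). It gave 1.61 for Klf2 (adjusted p = 0.0122), 2.48 for Klf3 (0.00706), 2.81 for Bach2 (0.0071) and 2.16 for Foxp1 (0.0127). These 4 of the 9 genes were called higher on that scale, where 64.8% of all tested genes were called higher and 0.349% lower. The median of all tested genes moved to 1.86, so Klf2 lay below that median and Klf3, Bach2 and Foxp1 above it. The scaling assumes that the T cell genes are level per cell and come from T cells alone, which was not tested.

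**Figure D3:**
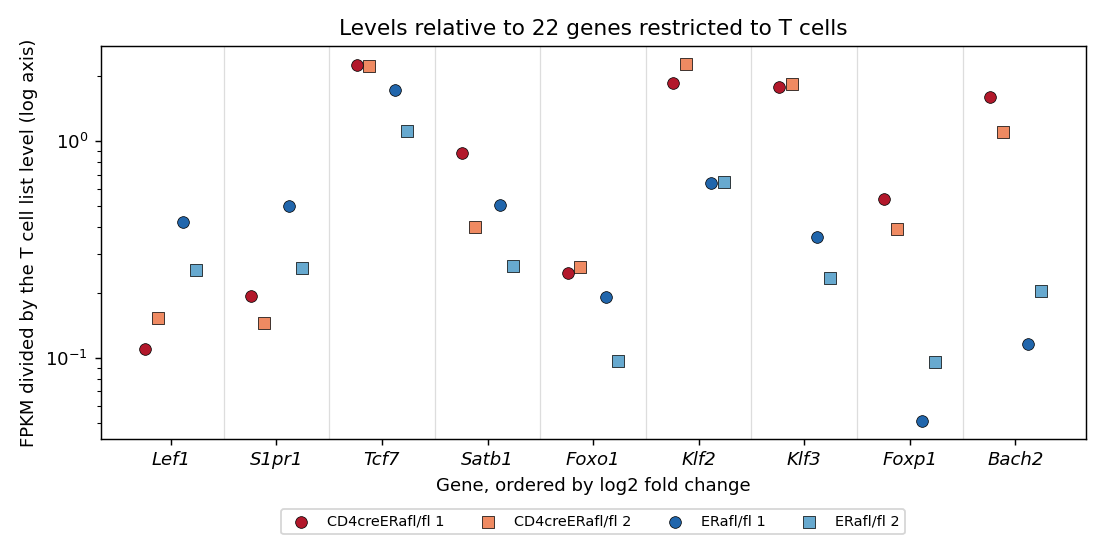
FPKM of each of the 9 genes divided by the level of 22 T cell genes in the same library, on a log axis. That level is the geometric mean of FPKM + 1. Each point is 1 library, CD4creERafl/fl in red and orange and ERafl/fl in blue. Lef1 and S1pr1 are lower in both CD4creERafl/fl libraries, Satb1 overlaps, and the other 6 genes are higher.

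The lists of genes that act beside the 9 did not share one direction, and none of their genes passed the test in either direction. Their median log2 fold changes ran from -0.90 for the effector factors to 0.92 for sphingosine 1-phosphate metabolism. Of 12 tested recirculation receptors other than S1pr1, 3 were higher and 6 lower without overlap, against 23.2% and 25.7% of all tested genes. Their median log2 fold change was -0.46. Cd69, whose product binds S1PR1 and keeps cells in tissue, had 6.20 and 5.56 FPKM in the CD4creERafl/fl libraries, against 39.2 and 28.9 FPKM in the ERafl/fl libraries. In limma its log2 fold change was -2.34 ± 0.36 (SE) with an adjusted p of 0.12. S1pr1 and Cd69 were both lower in the CD4creERafl/fl libraries, as were the 22 T cell genes, whose median log2 fold change was -2.54. Whether the levels of S1pr1 and Cd69 are linked was not tested. Itgb7, an integrin chain for homing to the gut, had 39.1 and 33.8 FPKM, against 99.6 and 86.2 FPKM (adjusted p = 0.154 in limma).

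Other recirculation receptors, of which Ccr7 and Il7r are in the FOXO target list, did not share one pattern. The following receptors were picked after their values were seen. Ccr7, a chemokine receptor for entry into lymph nodes, had 8.31 and 7.27 FPKM, against 4.48 and 7.83 FPKM, and its groups overlapped. Il7r, the interleukin-7 receptor chain and a FOXO1 target, had 21.0 and 29.1 FPKM, against 134 and 38.7 FPKM. S1pr4, a second receptor of the family, had 8.15 and 15.6 FPKM, against 41.0 and 30.1 FPKM, while S1pr5 had 7.93 and 9.25 FPKM, against 3.99 and 0.60 FPKM. S1pr5 was thus higher in the CD4creERafl/fl libraries without overlap, and Il7r and S1pr4 lower.

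Over the FOXO target list, without Klf2 and S1pr1, 5 of 12 tested genes were higher and 5 lower without overlap. The median log2 fold change was 0.25. Over all tested genes, 23.2% were higher and 25.7% lower without overlap. Ctla4, an inhibitory receptor, was listed at 0 in both CD4creERafl/fl libraries and had 15.3 and 11.7 FPKM in the ERafl/fl libraries (adjusted p = 0.0929 in limma). Trib2 had 4.71 and 2.54 FPKM, against 21.00 and 11.01 FPKM (adjusted p = 0.199 in limma). The FOXO kinases and phosphatases centred on a log2 fold change of 0.02, and 2 of 11 were higher and 5 lower without overlap. Inpp5d, the phosphatase SHIP1, had 30.8 and 29.1 FPKM, against 16.7 and 16.9 FPKM, and Pik3ca, a catalytic subunit of PI3K, had 1.90 and 3.46 FPKM, against 6.23 and 5.72 FPKM (adjusted p in limma 0.309 and 0.405).

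Genes of sphingosine 1-phosphate metabolism, 4 higher and 1 lower without overlap among 7 tested, had a median log2 fold change of 0.92. Among all tested genes, 23.2% were higher and 25.7% lower without overlap. Sgpl1, the lyase that degrades sphingosine 1-phosphate, had 19.1 and 15.8 FPKM, against 3.85 and 5.88 FPKM (adjusted p = 0.17 in limma). Plpp3, a lipid phosphatase, had 3.77 and 3.38 FPKM in the CD4creERafl/fl libraries, was listed at 0 in ERafl/fl 1 and had 0.47 FPKM in ERafl/fl 2 (adjusted p = 0.228 in limma). Quiescence regulators other than the 9 had a median of -0.33, with 2 of 13 higher and 5 lower without overlap. Rbl2, a retinoblastoma relative that restrains the cell cycle, had 12.3 and 7.02 FPKM, against 29.3 and 28.9 FPKM (adjusted p = 0.183 in limma). Slfn2, required for T cell quiescence in mice, had 34.5 and 48.0 FPKM, against 63.3 and 70.8 FPKM (adjusted p = 0.353 in limma).

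**Figure D4:**
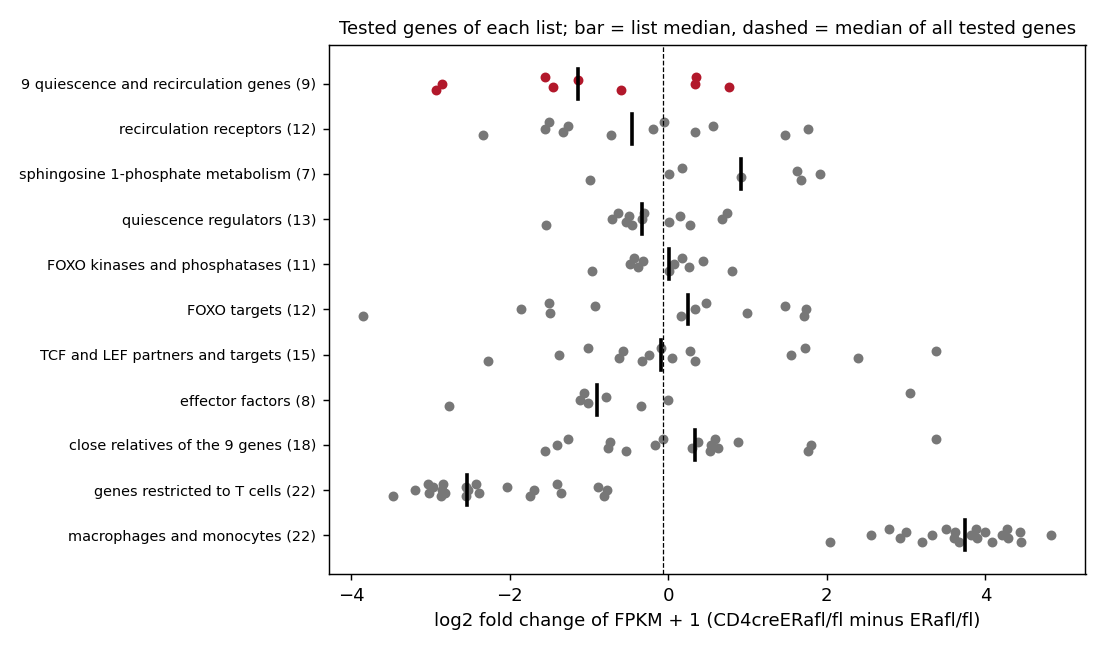
Log2 fold change of FPKM + 1, CD4creERafl/fl minus ERafl/fl, of each tested gene (points) in the 9 genes and 10 lists, with the number tested in brackets, the list median as a bar and the median of all tested genes as a dashed line. The 9 genes spread from -2.93 to 0.76 around a median of -1.14, between the T cell list (median -2.54) and the macrophage and monocyte list (median 3.74).

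Of 15 tested partners and targets of TCF1 and LEF1, 4 were higher and 4 lower without overlap, against 23.2% and 25.7% of all tested genes. The median log2 fold change was -0.09. Tcf7l2, a relative of Tcf7 and Lef1 used outside the T cell lineage, had 17.8 and 13.3 FPKM in the CD4creERafl/fl libraries, was listed at 0 in ERafl/fl 1 and had 1.49 FPKM in ERafl/fl 2 (adjusted p = 0.129 in limma). Tcf7l2 was thus above Lef1 and below Tcf7 in both CD4creERafl/fl libraries, and below both genes in the ERafl/fl libraries. Actn1, an actin crosslinker, had 49.4 and 29.0 FPKM, against 13.1 and 11.6 FPKM (adjusted p = 0.18 in limma). Axin2, a feedback target of β-catenin, had 4.16 and 2.49 FPKM, against 10.96 and 9.06 FPKM. Id3 was listed at 0 in both CD4creERafl/fl libraries and had 4.56 and 3.19 FPKM in the ERafl/fl libraries. The last pair was chosen after their values were seen.

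Among 18 tested relatives of the 9 genes, 5 were higher and 5 lower without overlap, against 23.2% and 25.7% of all tested genes. The median log2 fold change of these relatives was 0.34. Klf4, a zinc finger factor of monocytes, had 38.3 and 37.9 FPKM, against 9.80 and 10.8 FPKM. In limma this was 1.79 ± 0.32 (SE) on the log2 scale, with an adjusted p of 0.129. Foxp3, the factor of regulatory T cells and a relative of Foxp1, had 91.3 and 67.5 FPKM, against 44.0 and 40.5 FPKM (adjusted p = 0.264 in limma). Of the effector factors set against the naive and memory factors, 1 of 8 was higher and 6 lower without overlap, with a median of -0.90. Batf, an activator of effector programmes, had 15.8 and 6.10 FPKM, against 63.4 and 85.2 FPKM, and Zeb2, which monocytes and macrophages also express, had 39.5 and 37.9 FPKM, against 1.99 and 6.74 FPKM (adjusted p in limma 0.129 each).

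The genes whose pattern over the 4 libraries was most like the mean pattern of the 9 were Pan2, Trp53i11, Zfp740, Ikbke and Foxj3. Likeness was the Euclidean distance between profiles of log2(FPKM + 1), each centred on its own mean, over 4 libraries and 7509 candidate genes with a mean of at least 5 FPKM. It was 0.09 for Pan2 and 0.12 for Foxj3. Zfp740 had 29.3 and 31.7 FPKM in the CD4creERafl/fl libraries, against 74.2 and 45.1 FPKM in the ERafl/fl libraries. With 4 libraries, many genes can share such a pattern.

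Cells other than T cells express several of the 9 genes. Klf2 and S1pr1 are also genes of endothelium, and of the 6 endothelial markers in the table Cdh5, Kdr, Tek, Egfl7 and Vwf had at most 1.49 FPKM in any library, while Pecam1, which leukocytes also make, had 10.4 and 15.6 FPKM, against 18.0 and 11.4 FPKM. The endothelial sum was 11.4 and 17.9 FPKM in the CD4creERafl/fl libraries, against 18.3 and 15.4 FPKM. NK cell markers summed to 87.8 and 187 FPKM, against 38.5 and 60.9 FPKM. On log2(FPKM + 1), 6 of the 9 NK markers had a higher mean in the CD4creERafl/fl libraries and 3 a lower one. Neutrophil markers summed to 5412 and 7104 FPKM, against 1940.2 and 4059 FPKM. The part of these cell types in the levels of the 9 genes was not tested.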

How the data were processed

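FPKM were computed by the authors and deposited as 1 table. The submitters' processing notes name HISAT, Bowtie2, RSEM and mm10 and give no versions; whether counting used strand is not stated there. The 9 genes, the lists beside them and the tests were chosen with earlier results of these data known. Genes with a mean of at least 1 FPKM over the 4 libraries entered limma (version 3.58.1, under R 4.3.3) as log2(FPKM + 1), group as the only term, with an empirical Bayes trend, two-sided, Benjamini-Hochberg adjusted and called under 0.05. Fold changes on this scale understate those of low genes.

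Depth was estimated from 10348 genes with 1 transcript of over 800 bases, where FPKM times transcript length falls on multiples of 1 fragment: 500000 and 556000 fragments for CD4creERafl/fl 1 and 2, and 696000 and 663000 for ERafl/fl 1 and 2. At these depths 78.4% to 80.2% of low values lay within 0.2 of a whole fragment. Each depth was chosen to bring such values closest to whole fragments, so this share is no separate check of it. Transcript lengths came from GENCODE M21 and positions from RefSeq GRCm38.p6, the assembly of mm10. Summed FPKM was 444640 to 450656 per library. A count of 0 allows up to 3 fragments, which is 0.497 to 3.25 FPKM for the 9 genes, counting error only.

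Named were the 9 genes, of each other list up to 4 called genes or else the 2 with the smallest p, and 5 genes of like pattern. The lists of cell types were an exception: apart from B cells and endothelium they are given by sums and levels, not by the genes this rule picks. Others were chosen after their values were seen. 1 gene of the lists is not reported here, though it stays in the counts and medians.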

Additional observations from a re-analysis of the deposited data

How the results depend on the processing

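None of the 9 genes was called in any alternative but scaling to T cell genes, which called 4. Of 121 values of single genes under 14 alternatives, 113 kept their direction and side of the threshold. Scaling to T cell genes gave 1.61 for Klf2, 0.67 for Tcf7, 0.72 for Foxo1 and 0.64 for Satb1, opposite in sign to the values on deposited FPKM. It called Klf2, Klf3, Bach2 and Foxp1 higher and moved the median of the 9 genes to 0.72 and that of all genes to 1.86. Dividing all levels of a library by a lower T cell level produces this shift by construction. Without ERafl/fl 2, Klf3 had -0.14, and its values without 1 library ranged from -0.14 to 0.81. Without 1 library each, the median of the 9 genes ranged from -1.74 to -0.54. In these fits the lone library of a group is assumed to vary like the other group. Over all genes, 2 were called higher and 5 lower, and 0 and 0 without any 1 library, with a pseudocount of 0.1, without a filter, without a trend and with a replicate block; at an unadjusted p under 0.05 the last 4 had 1031, 1251, 1170 and 1117 higher and 782, 939, 826 and 771 lower. A pseudocount of 5 or a mean FPKM of at least 5 left 0 higher, with 1201 and 829 at an unadjusted p under 0.05. Scaling to T cell genes called 8363 higher and 45 lower, and voom weights on recovered fragments 144 higher and 50 lower of 6365 tested; 5 of the 9 genes, those with 1 transcript, entered that fit and none was called. The cause of the other shifts was not tested. Under the replicate block 0 of the 9 genes were called. Relative to the T cell level, 6 of the 9 genes were higher without overlap, and 4 with a pseudocount of 5 in that level. Same-numbered libraries did not deviate together (correlation of their deviations across genes -0.0016), so the numbers were not read as pairs. Depth limits S1pr1 and Lef1 most, at about 2 to 4 fragments in each CD4creERafl/fl library.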
